A study of Arabidopsis thaliana with 18 samples.

Results

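*bak1-5* plants were set against wild-type Col-0 plants after a mock treatment, in the absence of a pathogen and of systemic acquired resistance (SAR). The members were all 3 arrays of *bak1-5* and all 3 arrays of Col-0 treated with MgCl2, chosen by their labels, out of 18 arrays in the series. *bak1-5* is a point-mutation allele of *BAK1* (*BRI1-ASSOCIATED RECEPTOR KINASE 1*) in the Col-0 ecotype, and a single allele stands for the gene here. The study describes the mutation as dominant-negative. Lower leaves of soil-grown *Arabidopsis thaliana* plants were infiltrated with 10 mM MgCl2, and systemic leaves, which had not been infiltrated, were collected 48 h later. Each array was titled as a separate biological replicate and hybridized with labeled RNA from 1 sample on an Affymetrix ATH1 GeneChip. The other arrays, 3 per group, were *bak1-5* and Col-0 infiltrated with *Pseudomonas syringae* pv. *maculicola* (*Psm*, OD600 of 0.002, in 10 mM MgCl2), and *lecrk-VI.2-2*, a mutant in a lectin receptor kinase gene, under both treatments.

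BAK1 is a co-receptor kinase at the plasma membrane. It joins ligand-bound receptors such as FLS2, which perceives bacterial flagellin, and BRI1, which perceives brassinosteroids, and the joined kinases then phosphorylate each other and pass the signal on. Brassinosteroids promote cell expansion, and the genes they induce include *EXO* (*EXORDIUM*) and *TCH4*, which is also among the genes first isolated as induced by touch. A comparison of mutant and wild type after MgCl2 asks what the mutation changed in leaves in which SAR had not been induced.

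The values are log2 signals after robust multichip average (RMA) normalization, on which a difference of 1 is a 2-fold change. Over the 6 arrays, 18.3 to 19.1% of the probe sets had a signal of 6 or more, and any 2 of these arrays correlated with a Pearson r of 0.988 to 0.995 across probe sets. *RCA*, which encodes Rubisco activase and was the leaf marker assigned to a probe set, averaged 12.76 ± 0.03 in *bak1-5* and 12.71 ± 0.08 in Col-0 (SD, n = 3 each), and the root marker *PYK10* was at 3.70 ± 0.09 and 3.54 ± 0.14 in the same order. The 3′ minus 5′ signal of the actin control, a sign of RNA quality, was 0.62 to 0.92 in *bak1-5* and 0.68 to 0.86 in Col-0. Among 4 guard cell markers, 1 epidermis marker and 2 root markers none passed the test below, with median differences of -0.11, 0.09 and 0.07. No member of the vascular or dividing cell marker lists was assigned to a probe set. *BAK1* itself was at 5.55, 5.85 and 5.59 in *bak1-5* and at 5.68, 5.59 and 5.45 in Col-0, so the groups overlapped, and the difference was 0.09 (SE 0.14, 95% confidence interval -0.21 to 0.39). A point mutation need not alter the mRNA level, so this signal does not check the genotype labels.

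Few genes differed. By limma's moderated test, 8 probe sets were higher and 1 was lower in *bak1-5* than in Col-0 at a Benjamini-Hochberg adjusted p (q) of 0.05 or less and a 2-fold change or more, which is 0.0352% and 0.0044% of the 22746 probe sets tested. By q alone, 12 were higher (0.0528%) and 1 was lower (0.0044%). The median difference over all probe sets was 0.01, and the central 90% lay between -0.18 and 0.18. The 9 genes assigned to the 12 higher probe sets were *PHI-1*, *EXO*, *EXLA1*, *EXLA2*, AT3G19680, AT1G23030, AT4G16563, AT3G54400 and AT5G65470, and the other 3 probe sets were assigned to no gene. The lower one was assigned to AT5G03350. Between 5 and 23 probe sets were higher and between 0 and 4 were lower under the other settings tried, as given in the closing section. The count by q alone moved further, from 6 to 88 higher and from 0 to 38 lower.

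**Figure D1:**
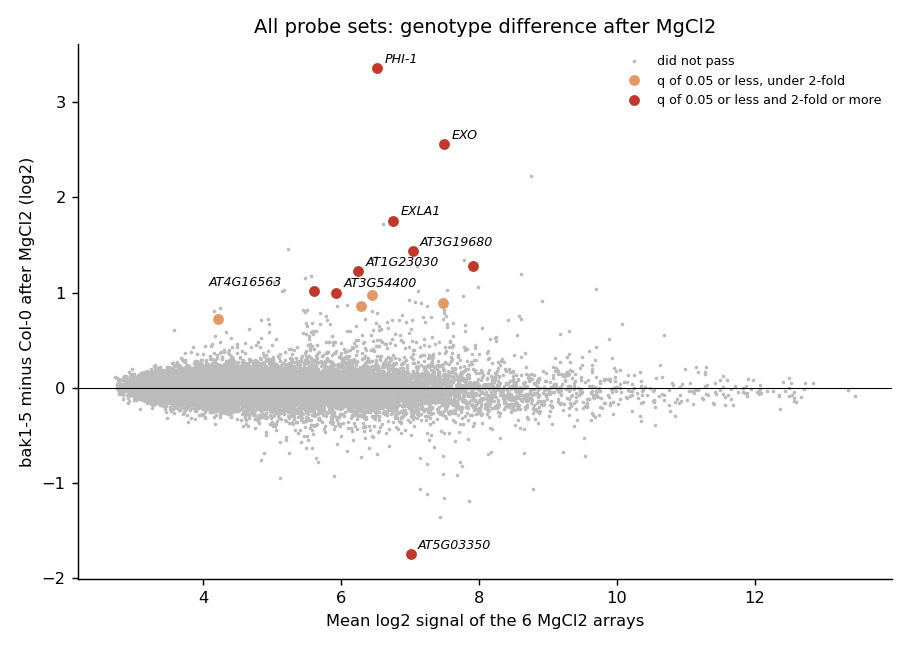
Difference between *bak1-5* and Col-0 after MgCl2 (log2, vertical axis) against the mean log2 signal of the 6 arrays (horizontal axis), with a point for each of the 22746 probe sets. Red points passed q of 0.05 with a 2-fold change, orange points passed q alone, and grey points did not pass; 8 red points lie above 0 and 1 lies below.

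The 2 largest differences belonged to relatives of each other. *PHI-1* (*EXORDIUM LIKE 1*, AT1G35140) and *EXO* (AT4G08950) encode members of the EXORDIUM family of secreted proteins, and *EXO* is a brassinosteroid-induced gene known to promote leaf growth. *PHI-1* was at 8.12, 9.44 and 7.04 in *bak1-5* and at 4.62, 4.95 and 4.96 in Col-0. All 3 *bak1-5* arrays lay above all 3 Col-0 arrays, with *bak1-5* replicate 2 highest and replicate 3 lowest. The difference was 3.35 (SE 0.46, q = 0.00315 by limma), a 10.2-fold higher signal with a 95% confidence interval of 5.25 to 19.9. Without *bak1-5* replicate 2 it was 6.66-fold and without *bak1-5* replicate 3 it was 15.3-fold. With an intensity trend and a robust prior in limma its q was 0.0702. *PHI-1* was named through the match described under the processing, not by the platform annotation.

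*EXO* was at 8.58, 9.55 and 8.19 in *bak1-5* and at 5.86, 6.18 and 6.62 in Col-0. The groups were again separate and the same *bak1-5* array was highest. The difference was 2.56 (SE 0.31, q = 0.000961), or 5.88-fold (95% confidence interval 3.77 to 9.18). It passed under all 14 alternatives that gave a value for the gene, at a q of 3.09e-05 to 0.0159. Both genes were also elevated, to a lower level, in Col-0 after *Psm*: *EXO* was at 7.94, 7.93 and 7.69 there, below every *bak1-5* array treated with MgCl2.

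**Figure D2:**
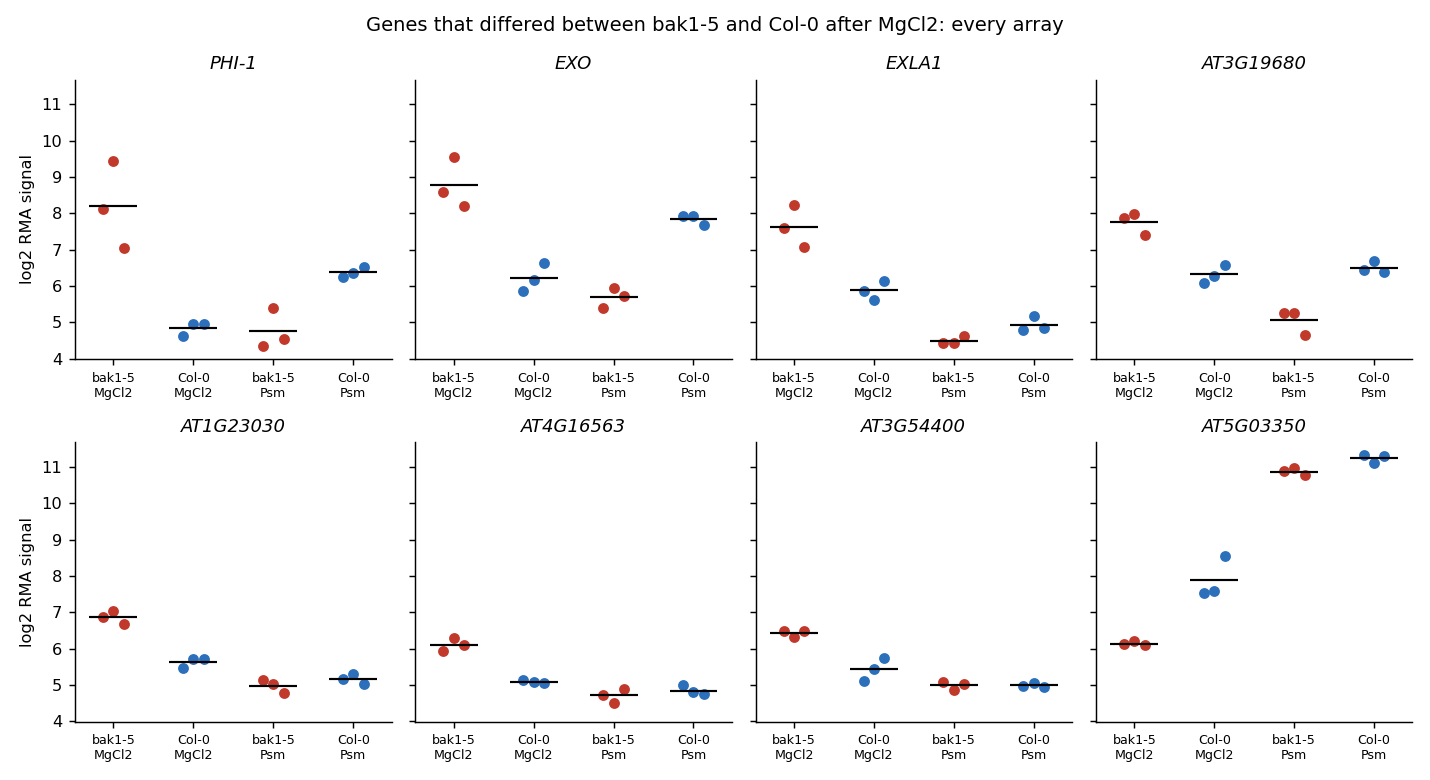
Log2 RMA signal (vertical axis) of the 8 named genes that passed q of 0.05 with a 2-fold change, in every array of *bak1-5* (red) and Col-0 (blue) after MgCl2 and after *Psm*; each point is an array and each bar is the mean of 3. The *bak1-5* MgCl2 arrays lie above the Col-0 MgCl2 arrays in 7 panels and below them for AT5G03350, and after *Psm* the *bak1-5* arrays lie below the Col-0 arrays or overlap them in those 7.

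Genes of the cell wall followed. Expansins loosen the wall during growth, and xyloglucan endotransglucosylase/hydrolases (XTHs) cut and rejoin xyloglucan chains. Of 37 such genes listed, 20 were assigned to a probe set, 17 of them by the platform annotation. In this list 2 were higher in *bak1-5* at q of 0.05 or less and none was lower, 16 of 20 differences were above 0 (54.3% of all probe sets were), and the median was 0.09. Most of the list was dim: for 13 of the 20 the highest group mean was below a signal of 6. Without dim probe sets 1 gene of the list was higher. *EXLA1* (expansin-like A1, AT3G45970) was at 7.60, 8.24 and 7.08 in *bak1-5* and at 5.87, 5.62 and 6.15 in Col-0, with no overlap. Its difference was 1.76 (SE 0.29, q = 0.0215), or 3.38-fold (95% confidence interval 2.23 to 5.13). *EXLA2* (expansin-like A2, AT4G38400) was dimmer, at 4.57, 4.67 and 4.51 in *bak1-5* and at 3.73, 3.94 and 3.91 in Col-0. Its difference was 0.72 (SE 0.13, q = 0.0365), again with every *bak1-5* array above every Col-0 array.

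The calls of these genes were close to the threshold. *EXLA1* lost it without *bak1-5* replicate 1 (difference 1.78, q = 0.123), without *bak1-5* replicate 2 (1.46, q = 0.2), without Col-0 replicate 1 (1.75, q = 0.114) and without Col-0 replicate 2 (1.63, q = 0.183). With an intensity trend and a robust prior its q was 0.0918. *EXLA2* lost its call without any 1 of the 6 arrays (differences of 0.66 to 0.76, q of 0.0563 to 0.359). *XTH24* (AT4G30270) was at 7.57, 6.99 and 6.88 in *bak1-5* and at 6.12, 6.03 and 5.94 in Col-0. It was chosen after its values were seen; its difference of 1.12 (SE 0.27) had a q of 0.262. At the other end of the list, *EXPA8*, also chosen after its values were seen, was at -0.39 (q = 1).

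The remaining 5 higher genes carry only locus identifiers in the annotation used here. AT3G19680 was at 7.88, 7.97 and 7.41 in *bak1-5* and at 6.10, 6.28 and 6.59 in Col-0, a difference of 1.43 (SE 0.20, q = 0.00315), or 2.70-fold (95% confidence interval 2.03 to 3.59). AT1G23030 was at 6.88, 7.03 and 6.69 in *bak1-5* and at 5.48, 5.73 and 5.72 in Col-0 (difference 1.22, SE 0.19, q = 0.0176). In both genes, the lowest *bak1-5* array lay well above the highest Col-0 array.

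Of these 5, AT4G16563 had the smallest spread in Col-0. It was at 5.93, 6.30 and 6.11 in *bak1-5* and at 5.13, 5.10 and 5.07 in Col-0, a difference of 1.01 (SE 0.12, q = 0.000961). AT3G54400 was at 6.48, 6.33 and 6.49 in *bak1-5* and at 5.11, 5.43 and 5.76 in Col-0, so it lay on the 2-fold limit itself (difference 1.00, SE 0.15, q = 0.0122). AT5G65470 was just short of it, at 6.77, 7.17 and 6.87 in *bak1-5* and at 5.90, 5.87 and 6.10 in Col-0 (difference 0.98, SE 0.13, q = 0.00315), and was named after its values were seen. AT3G19680, AT4G16563 and AT5G65470 kept q of 0.05 or less under all 14 alternatives. AT1G23030 lost it without *bak1-5* replicate 1 (q = 0.123), *bak1-5* replicate 2 (q = 0.188), Col-0 replicate 1 (q = 0.131) or Col-0 replicate 2 (q = 0.0752), and AT3G54400 lost it without *bak1-5* replicate 1 (q = 0.108), Col-0 replicate 1 (q = 0.0957) or Col-0 replicate 2 (q = 0.0752).

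Of the 3 probe sets without a gene, the one with the largest difference was at 8.76, 8.54 and 8.36 in *bak1-5* and at 7.19, 7.03 and 7.60 in Col-0 (difference 1.28, SE 0.15, q = 0.000961), and it was 1 of the 8 past the 2-fold limit. The other two differed by 0.89 and 0.86 (q = 0.0343 and 0.0351), and none of the 3 overlapped between the groups.

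The only lower probe set was that of AT5G03350, which encodes a lectin-like protein and is a member of the list of genes that respond to salicylic acid (SA). It was at 6.12, 6.20 and 6.09 in *bak1-5* and at 7.52, 7.58 and 8.56 in Col-0. The *bak1-5* arrays lay close together below all Col-0 arrays, while Col-0 replicate 3 stood above its group. The difference was -1.75 (SE 0.30, q = 0.032), which is 0.30 times the Col-0 signal (95% confidence interval 0.19 to 0.46). Without any 1 of the 6 arrays it was between -1.93 and -1.41, and q was 0.052 to 0.188, and with an intensity trend and a robust prior q was 0.0702. In bulk leaf RNA, fewer cells with a transcript and less of it per cell cannot be told apart.

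SA is the hormone that builds up during SAR and induces the *PR* genes, and no other gene of its response list passed. Of 22 genes listed, 19 were assigned, 16 of them by the match. One fell at q of 0.05 or less, AT5G03350, and none rose; 8 differences were above 0, and the median was -0.10. At an unadjusted p of 0.05 or less 4 of the 19 were lower and 1 was higher, against 1.66% and 2.35% of all probe sets. *PR1* was at 6.02, 5.75 and 5.84 in *bak1-5* and at 5.80, 5.88 and 5.92 in Col-0 (difference 0.00, 95% confidence interval -0.31 to 0.32). *BGL2* (*PR2*, a beta-1,3-glucanase) differed by -0.13 (95% confidence interval -1.02 to 0.76) and *PR5* (a thaumatin-like protein) by 0.29 (95% confidence interval -0.18 to 0.75), with q = 1 for all 3.

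Some members lay below Col-0 without passing. *ACD6*, whose gain-of-function form causes constitutive defense, was at 7.44, 7.17 and 7.40 in *bak1-5* and at 8.03, 8.04 and 8.29 in Col-0 (difference -0.78, SE 0.23, q = 0.522). *LURP1*, a gene induced late by an oomycete pathogen, was at 5.12, 5.36 and 5.32 in *bak1-5* and at 5.71, 5.87 and 6.43 in Col-0 (difference -0.74, SE 0.30, q = 1). *PCC1* (pathogen and circadian controlled 1), outside the list, averaged 8.26 ± 0.30 in *bak1-5* and 9.32 ± 0.61 in Col-0 (SD, n = 3 each, difference -1.06, SE 0.30, q = 0.478). *LURP1* and *PCC1* were chosen after their values were seen. Every *bak1-5* array lay below every Col-0 array for 5 of the 19 genes, against 5.46% of all probe sets, and Col-0 replicate 3 was the highest Col-0 array for 11 of the 19. Averaged over the list, the *bak1-5* arrays were 0.18, 0.25 and 0.21 below the Col-0 mean, and the Col-0 arrays were at -0.07, -0.04 and 0.12 around it. These means include AT5G03350, whose difference of -1.75 was the largest of the 19, and means without it were not computed. Of 16 genes of SA synthesis and regulation, 13 were assigned and none passed, with a median of -0.03. The 2 with the highest signal were *WRKY70* (difference -0.23) and *NPR3*, which encodes an SA receptor (0.26), both with q = 1.

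Genes that respond quickly to touch, to wounding or to stress were mostly above Col-0 in *bak1-5*, although few passed. The list holds calmodulin-like proteins, zinc-finger, ERF and WRKY transcription factors and other genes that rise within minutes of a mechanical stimulus. Of 41 listed, 37 were assigned to a probe set. At q of 0.05 or less 2 were higher, *PHI-1* and *EXO*, and none was lower. The median difference was 0.29, and 35 of 37 were above 0. At an unadjusted p of 0.05 or less 9 were higher and 0 lower, against 2.35% and 1.66% of all probe sets. For 10, every *bak1-5* array lay above every Col-0 array, against 7.33%. This list, like the others, was drawn up with earlier results of these data known, and it holds the 2 largest differences of the comparison. Its counts are therefore not independent of the data.

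*TCH4*, which encodes an XTH, followed them in size with 10.07, 10.64 and 8.90 in *bak1-5* and 7.21, 8.01 and 7.72 in Col-0. The groups were separate, but the spread within *bak1-5* was wide, and the difference of 2.22 (SE 0.44) had a q of 0.0927. It passed under 6 of 14 alternatives, with a q of 0.00892 to 0.747 over all 14, and without *bak1-5* replicate 3 the difference was 2.70 (q = 0.016). The transcription factor gene *DREB26* was at 7.82, 8.32 and 6.26 in *bak1-5* and at 5.58, 5.92 and 5.75 in Col-0 (difference 1.72, SE 0.36, q = 0.126). *MYBR1* (*MYB44*) differed by 1.02 (q = 0.423) and the zinc-finger gene *SZF1* by 1.17 (q = 0.944), of which the *SZF1* arrays overlapped. *DREB26*, *MYBR1* and *SZF1* were chosen after their values were seen. At the low end *ZAT6* was at -0.11 and *CBF2* at 0.01, likewise chosen afterwards.

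The size of this shift depended on single arrays. *bak1-5* replicate 2 had the highest signal of the 3 *bak1-5* arrays for 34 of the 37 genes, and replicate 3 had the lowest for 33. Relative to the Col-0 mean, the mean over the 37 genes was 0.46, 1.04 and 0.07 in *bak1-5* replicates 1 to 3 and -0.07, 0.25 and -0.18 in Col-0, so *bak1-5* replicate 3 lay within the Col-0 range. Without *bak1-5* replicate 2 the median of the list was 0.06 and 26 of 37 differences were above 0; without Col-0 replicate 3 it was 0.16 with 29 above 0, and without *bak1-5* replicate 3 it was 0.45 with 36 above 0. After cyclic loess or median centring of the arrays, 34 of 37 were above 0.

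Of the 37, 32 were named through the match of their SAR changes to rows of the study's supplementary table. Those rows give the changes of Col-0, *lecrk-VI.2-2* and *bak1-5*, and the match favors genes low in the Col-0 MgCl2 arrays. Over all 985 probe sets named this way the median was 0.02 and 55.7% of the differences were above 0. This average does not tell how far the naming affected the 32 touch genes, which was not tested. The 5 members named by the platform annotation, *EXO* among them, were all above 0, with a median of 0.29.

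**Figure D3:**
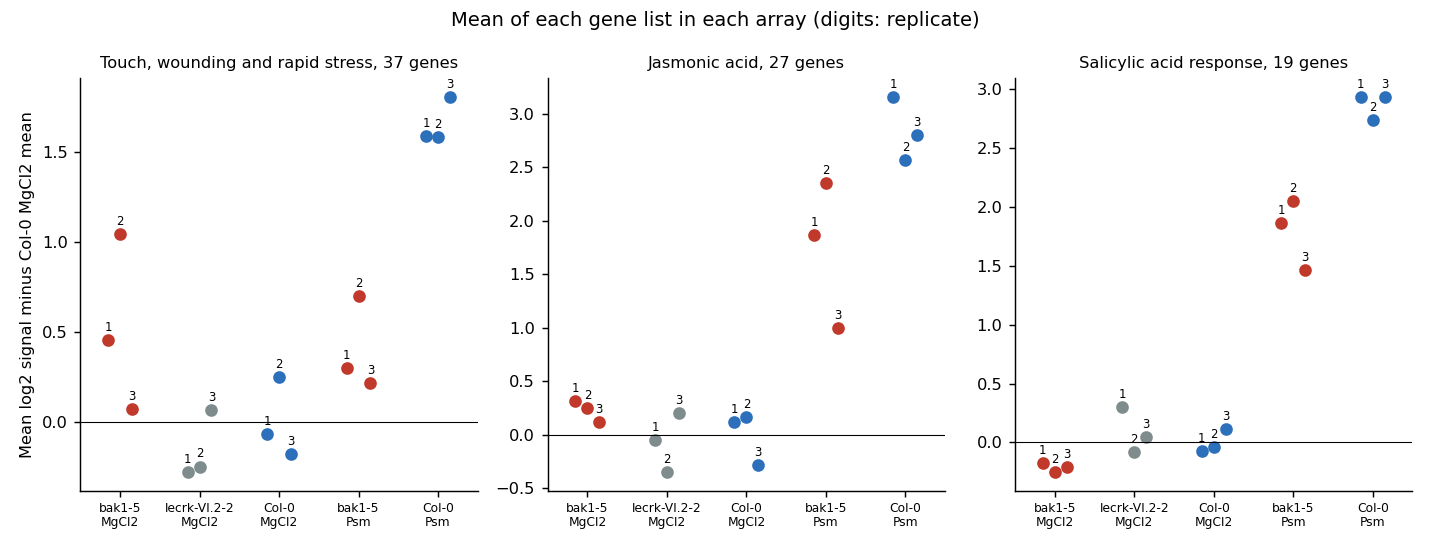
Mean log2 signal of 3 gene lists in each array, relative to the mean of the 3 Col-0 MgCl2 arrays (vertical axis), in *bak1-5* (red), *lecrk-VI.2-2* (grey) and Col-0 (blue) by treatment; each point is an array and the digit is its replicate number. For the touch list *bak1-5* MgCl2 replicate 2 stands at 1.04 and replicate 3 at 0.07. For the SA response list, which includes AT5G03350, all 3 *bak1-5* MgCl2 arrays lie below the 3 Col-0 MgCl2 arrays.

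Genes of jasmonic acid (JA), the hormone of the wound response, were next. Of 31 listed, 27 were assigned, 24 by the match. None passed q of 0.05, 19 of 27 differences were above 0 (54.3% of all probe sets were) and the median was 0.14. At an unadjusted p of 0.05 or less 4 were higher, *JAZ7*, *LOX4*, *CYP94C1* and *JAZ6*, and 0 were lower, against 2.35% and 1.66% of all probe sets. All 4 were named by the match, which favors genes low in the Col-0 MgCl2 arrays. How far the naming affected this count was not tested. *JAZ7*, which encodes a repressor of JA signaling, was at 6.27, 6.59 and 5.04 in *bak1-5* and at 4.33, 4.68 and 4.51 in Col-0 (difference 1.46, SE 0.42, q = 0.522). *CYP94C1*, whose product oxidizes the active hormone, averaged 4.56 ± 0.28 in *bak1-5* and 3.76 ± 0.27 in Col-0 (SD, n = 3 each, difference 0.81, SE 0.15, q = 0.0793). It was dim, with both means below a signal of 6. It passed under 5 of 13 alternatives by limma, at a q of 0.00892 to 0.623 over all 13. *LOX4*, a lipoxygenase gene of JA synthesis, differed by 1.01 (q = 0.318) and *JAZ6* by 0.75 (q = 1). These 4 were chosen after their values were seen. The most abundant synthesis genes moved little: *LOX2* differed by -0.18 and *AOS* by -0.19, both with q = 1. The mean of the 27 genes was 0.32, 0.25 and 0.12 above the Col-0 mean in the *bak1-5* arrays, and the Col-0 arrays were at 0.12, 0.17 and -0.29.

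Among the lists closest to the function of BAK1, those of immune receptors and of their early targets held no call. Of 31 genes of the receptor complex and early signaling, 17 were assigned, none passed q or an unadjusted p of 0.05, and the median was 0.05. *SOBIR1*, a receptor kinase gene, differed by 0.27 and *MKK5*, a MAP kinase kinase gene, by -0.10, both with q = 1. Of 17 genes induced in pattern-triggered immunity, 6 were assigned and none passed q of 0.05, and the median was 0.10. *WRKY18* was 0.72 higher in *bak1-5* (q = 0.878, chosen after its values were seen), *WRKY33* differed by 0.29 (q = 1), and *PEN3*, a transporter gene, was at 6.53, 6.41 and 5.64 in *bak1-5* and at 6.67, 6.63 and 6.79 in Col-0 (difference -0.51, q = 0.91). Brassinosteroid genes could hardly be read, since 3 of 25 were assigned: *EXO*, which passed, and *TCH4* and *EXPA8*, which did not, all given above.

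In most other lists, too, no member passed. None of 12 genes of endoplasmic reticulum folding did (median 0.01, range -0.05 to 0.17), nor did any of 6 of photosynthesis (median -0.02), 10 of cysteine-rich and wall-associated receptor kinases (median 0.04), 8 of abscisic acid, cold and drought (median 0.17), 6 of indole glucosinolates and camalexin (median 0.08), 6 of flavonoids and anthocyanins (median 0.10), 6 of senescence and sugar starvation (median 0.11), 5 of heat shock (median 0.09) and 4 of auxin (median 0.05). The lists of aquaporins, the circadian clock, aliphatic glucosinolates, iron and phosphate, and flowering had 1 to 3 members assigned and none passed. Among their members with the highest signal, *PIP1;4*, an aquaporin gene, differed by 0.14, *GI*, a clock gene, by -0.04, *BCAT4*, of aliphatic glucosinolate synthesis, by 0.15 and *CSD1*, a copper/zinc superoxide dismutase gene, by -0.92 (q = 0.495). *TT4* (chalcone synthase) differed by 0.64 (q = 0.879), *WAK1* by -0.76 and *ERD10*, a dehydrin gene, by 0.48, the last 2 with q = 1. The remaining genes named for their signal lay between -0.37 (*ASN1*, of asparagine synthesis) and 0.36 (*RD20*, induced by drought), all with q = 1.

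**Figure D4:**
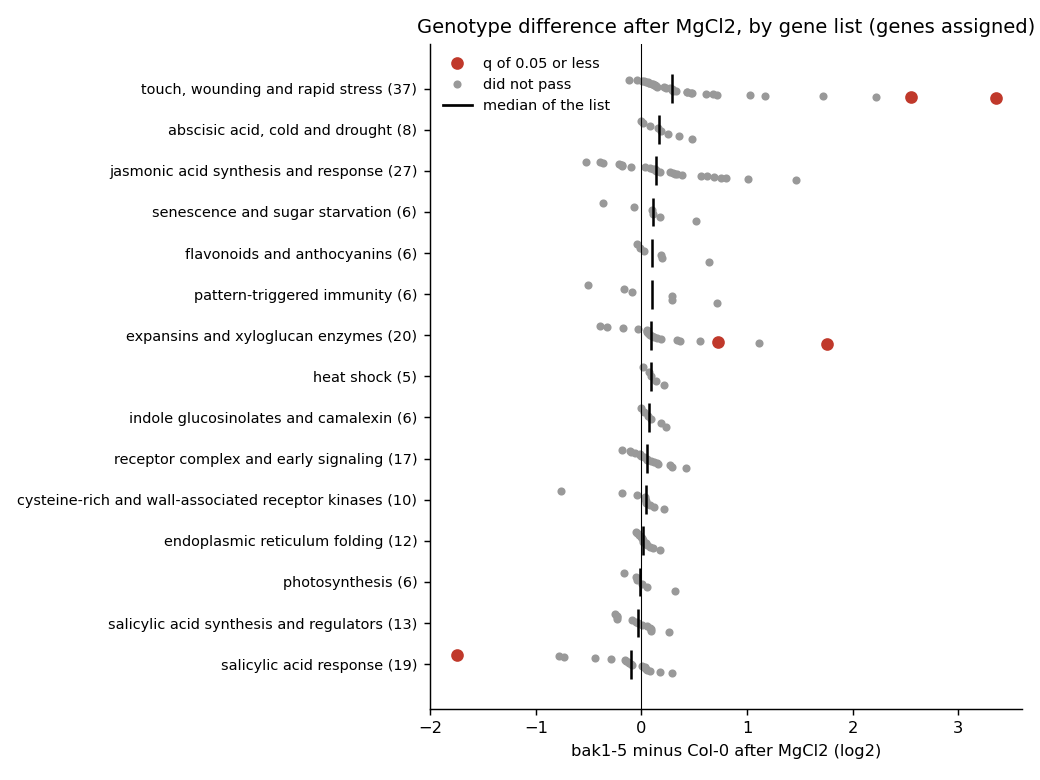
Difference between *bak1-5* and Col-0 after MgCl2 (log2, horizontal axis) for each gene of the 15 lists with 5 or more genes assigned, with the number assigned in brackets. Each point is a gene, red where q was 0.05 or less, and each bar is the median of a list; *PHI-1*, *EXO*, *EXLA1* and *EXLA2* are the red points above 0 and AT5G03350 is the red point below.

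Beyond the lists, 4 genes that did not pass are given for their size or q, all chosen after their values were seen. *RALFL22*, which encodes a peptide of the RALF family, was at 7.07, 7.57 and 6.73 in *bak1-5* and at 5.56, 5.93 and 5.81 in Col-0 (difference 1.35, SE 0.27, q = 0.0971). *AGP1*, an arabinogalactan protein gene, was at 6.86, 8.26 and 6.48 in *bak1-5* and at 5.69, 6.31 and 5.48 in Col-0 (difference 1.37, SE 0.36, q = 0.359). On the lower side, *CCL* (CCR-like) was at 6.90, 6.74 and 6.44 in *bak1-5* and at 8.05, 7.82 and 7.55 in Col-0 (difference -1.12, SE 0.22, q = 0.0971), and *PORB*, of chlorophyll synthesis, was at 6.91, 6.69 and 6.93 in *bak1-5* and at 7.52, 7.43 and 7.97 in Col-0 (difference -0.80, SE 0.16, q = 0.0971). In these 4 genes all *bak1-5* arrays lay on 1 side of all Col-0 arrays. Over all probe sets, 7.33% had every *bak1-5* array above and 5.46% had every one below, and choosing genes by size or q favors such a separation. *CCL*, *PORB* and *RALFL22* passed under 3, 4 and 4 of 14 alternatives, and *AGP1* under 0 of 14, at a lowest q of 0.0745.

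The genotype difference was then read in the *Psm* arrays, whose signals do not enter the MgCl2 differences but share the estimate of the spread behind each q. None of the 8 higher probe sets was higher in *bak1-5* after *Psm* at q of 0.05 or less (1.75% of all probe sets were), and the lower one was not lower (2.28%). All 8 differences were below 0 after *Psm* (50% of all probe sets were above 0), and 2 of them passed, *EXO* and AT3G19680. *EXO* was at 5.40, 5.94 and 5.71 in *bak1-5* after *Psm* and at 7.94, 7.93 and 7.69 in Col-0 after *Psm* (difference -2.16, SE 0.31, q = 0.000311). AT3G19680 was at 5.25, 5.27 and 4.67 in *bak1-5* and at 6.44, 6.69 and 6.38 in Col-0 (difference -1.44, SE 0.20, q = 0.000211). *PHI-1* was at 4.34, 5.40 and 4.55 in *bak1-5* and at 6.25, 6.37 and 6.53 in Col-0 (difference -1.62, SE 0.46, q = 0.0544). For AT1G23030, AT4G16563 and AT3G54400 the difference after *Psm* was -0.18, -0.13 and -0.01 (q of 0.74 to 0.994).

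The change of the genotype difference between the treatments, tested as an interaction, passed q of 0.05 for all 8 higher probe sets, against 1.38% of all, and did not for AT5G03350 (q = 0.143). It uses the MgCl2 arrays that chose these probe sets and is therefore not independent of the choice. For *EXO* it was -4.72 (SE 0.43, q = 2.51e-05) and for *PHI-1* -4.98 (SE 0.65, q = 0.000464). By q alone, 11 of the 12 higher probe sets were below 0 after *Psm* and 3 passed. All *bak1-5* arrays treated with *Psm* lay below all *bak1-5* arrays treated with MgCl2 for each of the 12. For 11 of them the 3 *bak1-5* MgCl2 arrays lay above all 15 other arrays of the series. The exception was *EXLA1*, for which *lecrk-VI.2-2* replicate 3 after MgCl2 was at 7.50. These separations use the MgCl2 arrays that chose the 12 and were favored by that choice. Their shares over all probe sets were not counted. In the touch list 24 of the 37 genes were lower in *bak1-5* after *Psm* at q of 0.05 or less, against 2.28% of all probe sets, with a median of -1.35. The match, which named 32 of the 37, favors genes high in Col-0 after *Psm*. Over the 985 probe sets it named the median after *Psm* was -0.33 and 11% were above 0, against 50% of all. The 5 touch genes named by the platform annotation were below 0 as well. How much of the touch result came from the naming was not tested.

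**Figure D5:**
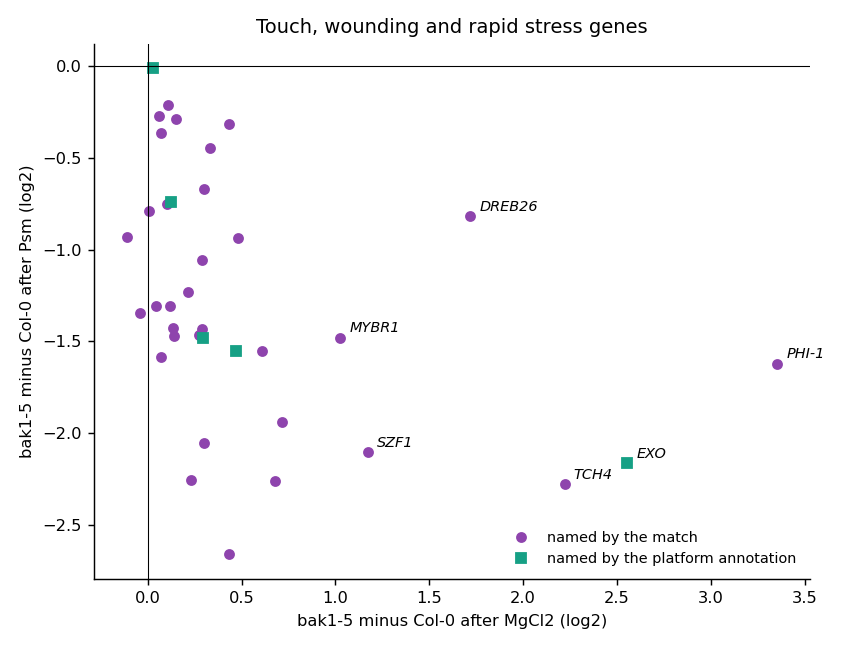
Genotype difference after MgCl2 (horizontal axis) and after *Psm* (vertical axis), both *bak1-5* minus Col-0 on the log2 scale, for the 37 genes of the touch list; circles were named by the match and squares by the platform annotation. Most points lie right of 0 and all lie below 0, with *PHI-1*, *EXO* and *TCH4* farthest to the right.

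The other mutant was set against the same Col-0 MgCl2 arrays too. In *lecrk-VI.2-2* no probe set differed from Col-0 after MgCl2 at q of 0.05 or less (0%). At an unadjusted p of 0.05 or less by limma, 987 of the 22746 did, a limit that some probe sets pass without any difference. In *bak1-5*, 534 were higher and 378 lower at that limit. The *lecrk-VI.2-2* MgCl2 arrays were more variable, with a median SD of 0.140 against 0.093 in *bak1-5* and 0.087 in Col-0. In their replicate 2, 16% of probe sets had a signal of 6 or more. The lack of calls therefore does not show that this mutation changed less. *EXO* was at 6.17, 6.08 and 7.30 in *lecrk-VI.2-2*, *PHI-1* at 4.65, 4.93 and 6.17, and *EXLA1* at 6.36, 6.03 and 7.50. In these 3 genes replicate 3 was the highest *lecrk-VI.2-2* array, as it was for 10 of the 12 probe sets higher in *bak1-5*. Over the 12 probe sets higher in *bak1-5*, the *lecrk-VI.2-2* difference was 0.14 to 0.75, and its mean lay below every *bak1-5* array for each of them. AT5G03350 was at 8.64, 6.90 and 7.69 in *lecrk-VI.2-2*, which spans the Col-0 values. Both comparisons share the Col-0 arrays, so no overlap between them was counted.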

How the data were processed

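Systemic leaf RNA of 6 groups of 3 samples was measured on ATH1 arrays, and the 6 MgCl2 arrays of *bak1-5* and Col-0 were compared. The deposited values are log2 signals that the authors made with RMA in the affy package, version 1.58. The 64 control probe sets of the 22810 were left out, leaving 22746. Models were fitted with limma 3.58.1 in R 4.3.3 on all 18 arrays with a mean per group, and q was adjusted over all probe sets. Single genes were judged by q of 0.05 or less. Array number and signal limit the precision.

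The platform annotation with RefSeq named 13507 probe sets. Another 985 were named by matching their SAR changes to rows of the study's supplementary table (names only, within 0.00051), and 7700 had no gene. The script was tested on simulated data. The members, gene lists and tests were chosen with earlier results of these data known. Genes were named by rule: *BAK1*, *PR1*, *PR2*, *PR5*, called genes (up to 15 per direction), up to 4 passing members per list and direction, and the 2 brightest members where fewer than 2 passed; exceptions are marked. Each gene used its brightest probe set. The p-values measure the spread between the samples titled as biological replicates. Alternatives covered the samples in the fit, spread prior, array weights, a filter, normalization, a replicate block, thresholds, naming and each array left out.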

Additional observations from a re-analysis of the deposited data

Results flagged for a closer look

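The genotype difference of 24 genes named above changed between the treatments, by the interaction (*bak1-5* minus Col-0 after *Psm*, less the same after MgCl2) at q of 0.05 or less by limma. Each includes the MgCl2 arrays used in the comparison above. Such a change need not rest on a difference after MgCl2, and many of these genes did not pass there. For *PR1* the difference was 0.00 after MgCl2 and -2.15 after *Psm*, and for *BGL2* it was -0.13 and -3.04. On the log2 scale it was -4.98 for *PHI-1*, -4.72 for *EXO*, -4.50 for *TCH4*, -3.28 for *SZF1*, -2.99 for *AGP1*, -2.91 for *BGL2*, -2.88 for AT3G19680, -2.77 for *JAZ7*, -2.65 for *WRKY18*, -2.54 for *DREB26* and -2.50 for *MYBR1*. It was -2.20 for *LOX4*, -2.20 for *EXLA1*, -2.15 for *PR1*, -2.03 for *XTH24*, -1.91 for *ASN1*, -1.68 for *RALFL22*, -1.41 for AT1G23030, -1.34 for *WRKY33*, -1.29 for *NPR3*, -1.14 for AT4G16563, -1.12 for *CYP94C1*, -1.01 for AT3G54400 and -0.99 for AT5G65470. The share of all 22746 probe sets with such a change was 1.38%. Many of the 24 were named through the match to SAR changes, and those changes are the terms of this interaction. Others were named for the size of their difference after MgCl2. The 24 were therefore favored by their naming and are not a fair sample to set against that share.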

How the results depend on the processing

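The numbers of probe sets called higher and lower were 8 and 1. They were 17 and 4 in a fit of the 6 MgCl2 arrays alone, 17 and 1 with the 12 arrays of *bak1-5* and Col-0, 6 and 0 with an intensity trend and a robust prior, 23 and 4 with array weights, 14 and 2 after cyclic loess, 5 and 0 at q of 0.01, and 12 and 1 without a fold limit. Without 1 of the 6 arrays, 5 to 15 were higher and 0 to 4 lower. The 5 were reached without *bak1-5* replicate 2, Col-0 replicate 1 or Col-0 replicate 2, the 15 without *bak1-5* replicate 3 and the 4 without Col-0 replicate 3. By q alone the numbers were 12 and 1 in the main fit, 64 and 19 with the 6 arrays and 43 and 4 with the 12. They were 88 and 38 with array weights and 33 and 5 after cyclic loess. Without 1 array, 6 to 24 were higher and 0 to 8 lower by q alone. The cause of these shifts was not tested.

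Of the probe sets called higher, 0 were also higher after *Psm*, against 2 with the 12 arrays, 2 with array weights and 1 after cyclic loess; of those called lower, 0 were also lower, against 1 with array weights and 1 after cyclic loess. The interaction passed for 8 of the 9 called, for 16 with the 12 arrays, 22 with array weights and 5 at q of 0.01, and for 5 to 15 without 1 array. Over all lists, 4 genes were higher and 1 was lower by q, against 7 and 2 with the 6 arrays, 9 and 1 with the 12, 2 and 0 with a trend and robust prior, 11 and 2 with array weights and 7 after cyclic loess, and 2 to 6 higher and 0 lower without 1 array.

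With the replicate number as a block, 11 were higher and 1 lower, *EXLA2* no longer passed (q = 0.0722), and *TCH4* (q = 0.0303) and *CYP94C1* (q = 0.0442) passed. The numbers share no stated origin, and deviations of same-numbered *bak1-5* and Col-0 arrays correlated at -0.02, 0.06 and 0.05 across probe sets, so they were not taken as pairs. No difference of a gene past the threshold changed sign in any alternative. With 3 arrays per group the median standard error of a difference was 0.11, and 18.3 to 19.1% of probe sets reached a signal of 6.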
